A study of Homo sapiens with 6 samples.

Results

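Keratins are the intermediate filament proteins of epithelial cells, and the 8 keratin genes described here, KRT7, KRT8, KRT18, KRT19, KRT15, KRT17, KRT80 and KRT10, were measured in Panc-1, an established line of epithelial cells derived from a human pancreatic carcinoma. They were taken by gene name from a table of 58735 genes, in which each name stood in a single row. The groups were 3 libraries of Panc-1 kept for 72 h with cancer-associated fibroblasts (CAF) overexpressing PAI-1, an inhibitor of plasminogen activators, and 3 of Panc-1 kept for 72 h with CAF. Panc-1 was labelled wild type in both groups, and all 6 libraries came from 1 line. The origin of the CAF, the vector used and the way the cells were kept apart or separated before RNA extraction are not stated in the labels. The extraction text of the labels speaks of Cal27 treated with Stattic or DMSO, whereas title, source and treatment labels all name Panc-1. The labels call the replicates biological without saying whether they were separate cultures, so every p-value here reflects only the spread among these libraries, which may be technical.

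A keratin filament is built from heterodimers of an acidic type I and a neutral or basic type II keratin, and a keratin without a partner is degraded. KRT8 (type II) and KRT18 (type I) are the first pair of simple epithelia, while KRT7 (type II) and KRT19 (type I) are typical of ducts, pancreatic ducts included. KRT80 is a further type II keratin of epithelial cells. KRT15, KRT17 and KRT10 are type I keratins known mainly from basal, activated and suprabasal cells of stratified epithelia.

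The type II members KRT80, KRT7 and KRT8 lie on chromosome 12 of GRCh38 from 52168996, the start of KRT80, to 52949954, the end of KRT8, and KRT18 is the type I gene that lies beside them, from 52948871 to 52952901 on the opposite strand to KRT8. The other type I members lie on chromosome 17, KRT10 from 40818117 to 40822595, KRT15 from 41513743 to 41522529, KRT19 from 41523617 to 41528308 and KRT17 from 41619441 to 41624842. The 27 coding bases below encode the end of the central helix, the most conserved stretch of keratins, and are shown because members can share reads only where their sequences are alike. They were read from GENCODE 29 transcripts, each 5′ to 3′ on the coding strand, with capitals at the 13 bases that were identical in all 8 members.
KRT80: ACcTACaGgaagCTGgTgGAgGgcgag
KRT8: ACcTACaGgaagCTGcTgGAgGgcgag
KRT7: ACcTACcGcaagCTGcTgGAgGgcgag
KRT18: ACcTACcGccgcCTGcTgGAaGatggc
KRT19: ACcTACcGcagcCTGcTcGAgGgacag
KRT15: ACtTACcGcagcCTGcTcGAgGgccag
KRT17: ACcTACcGccgcCTGcTgGAgGgagag
KRT10: ACcTACcGcagcCTGcTaGAaGgagag
KRT80 differed from KRT8 at 1 base and KRT7 differed from it at 2, while the type I members differed from it at 6 to 10 bases. Over whole transcripts the overlap differed between members. Of the 50-base words of a gene's transcripts, 0.364% of those of KRT80, 0.977% of those of KRT19 and 0.42% of those of KRT10 also occurred in another gene on either strand. KRT15 shared 1.16% of its words, KRT7 5.70%, nearly all with KRT7-AS, and KRT17 9.02%. KRT18 and KRT8 shared more, with 24.5% and 16.1% of their words found elsewhere, and 12.7% of the words of KRT18 lay in transcripts of KRT8, whose longest isoforms start across KRT18. No label states how reads in such stretches were counted or if the strand played a part, so values of KRT8 and KRT18 are uncertain to that extent.

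Library totals ran from 13628508 to 16006880 counts, and 3 counts in a library corresponded to 0.187 to 0.22 CPM when divided by the library total alone. The CPM of genes given from here on were also scaled by TMM factors, which ran from 0.970 to 1.03. PAI-1 replicate 2 stood apart, with a chi-square per degree of freedom of 9.51 and 6.63 against the other libraries of its group. Those had 3.39 between them. For the members that rose, the change is therefore also given without PAI-1 replicate 2. Among the epithelial and ductal markers, SOX9 and CLDN4 were abundant (194 ± 10.1 and 192 ± 5.46 CPM with CAF overexpressing PAI-1, 153 ± 2.11 and 241 ± 2.22 CPM with CAF, SD, n = 3 each), CDH1 stood at 1.01 ± 0.33 CPM with CAF overexpressing PAI-1 and 1.67 ± 0.21 CPM with CAF, and CFTR had 0 counts in every library. All 17 squamous markers were under 1 CPM in every library, among them KRT5 and KRT14 with 1 count each in all 6 libraries together. The list of fibroblast markers held 16 genes, of which 9 stayed below 1 CPM throughout, with DCN, PDGFRA and FAP at or near 0. FBLN1 had 110 CPM with CAF overexpressing PAI-1 and 116 CPM with CAF, and MMP2 51.2 and 47.3 CPM, with overlapping groups. The summed level of that list was 697 to 787 CPM with CAF overexpressing PAI-1 and 548 to 568 CPM with CAF. Most of it came from S100A4 and COL1A1, both higher with CAF overexpressing PAI-1 (log2 fold changes 0.69 and 0.47, edgeR adjusted p = 4.91e-09 and 1.71e-06). The part of S100A4 and COL1A1 in the keratin results was not tested.

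The comparison asks how the keratins of Panc-1 stand with CAF labelled as overexpressing PAI-1, against CAF. Genes were tested with edgeR's quasi-likelihood test over all 14960 genes that passed a filter on low counts, as CAF overexpressing PAI-1 minus CAF, and genes with a Benjamini-Hochberg adjusted p under 0.05 are said to have risen or fallen. Of the 8 members 7 could be tested, and KRT17 did not pass the filter. KRT80, KRT7, KRT18, KRT19 and KRT8 rose, no member fell, and KRT10 and KRT15 were not called. Over all genes tested, 32.2% were called, 17.2% as higher and 15.0% as lower. The CPM of the groups did not overlap for 43.4% of all genes tested. The median log2 fold change was 0.37 over the 7 members, against -0.0015 over all genes tested, and the rises of KRT18, KRT19 and KRT8 were at or under the median size of 0.39 among all changed genes. Because the members were chosen with earlier results of these data known, this contrast is no test of keratins as a set. Nor were all genes matched to the members in level, and KRT8 stood above 99.5% of them. With library size alone as scaling, which moved the median of all genes by -0.067 and split the calls over all genes into 1839 higher and 3182 lower (2571 and 2239 in the test used here), 4 members rose and none fell.

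**Figure D1:**
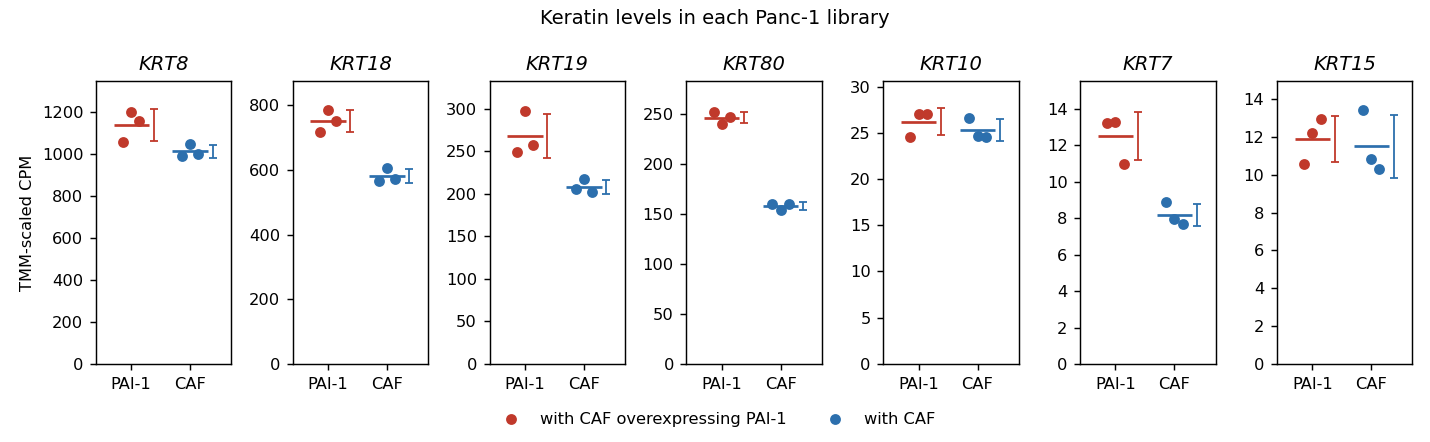
TMM-scaled CPM of the 7 tested keratins in each library, with CAF overexpressing PAI-1 (red, left) and with CAF (blue, right). Points are libraries, lines are means and bars are the SD of 3 libraries. The groups stand apart for KRT80, with 240.1 to 252 CPM against 153 to 159.9 CPM, and overlap for KRT10 and KRT15.

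KRT80 had the largest change among the members. It had 252, 240.1 and 247 CPM in PAI-1 replicates 1, 2 and 3, against 159.9, 153 and 159.8 CPM in CAF replicates 1, 2 and 3. All libraries with PAI-1 overexpression were well above all libraries with CAF, and the libraries of a group lay close together. KRT80 rose 1.56-fold (log2 fold change 0.64, SE 0.054, edgeR adjusted p = 1.62e-11). Without PAI-1 replicate 2 the log2 fold change was 0.66. It is also the member with the smallest share of 50-base words found in another gene.

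The ductal pair KRT7 and KRT19 rose at very different levels. KRT7, the type II partner, had 13.2, 13.3 and 10.99 CPM with CAF overexpressing PAI-1 and 8.86, 7.94 and 7.70 CPM with CAF. The groups did not overlap. KRT7 rose 1.52-fold (log2 fold change 0.61, SE 0.13, edgeR adjusted p = 0.000598), and by 0.56 on the log2 scale without PAI-1 replicate 2. Its counts were between 107 and 195 per library, so that it is the least precise of the members that rose. The annotated KRT7 gene overlaps KRT86 and the antisense gene KRT7-AS, which had 2 to 10 counts in the libraries with PAI-1 overexpression and 5 to 10 in those with CAF.

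KRT19, the smallest keratin and the type I keratin of ducts, had 249.5, 297 and 257 CPM with CAF overexpressing PAI-1 and 205, 217 and 202 CPM with CAF. The highest value was that of PAI-1 replicate 2, and the groups did not overlap. KRT19 rose 1.29-fold (log2 fold change 0.37, SE 0.060, edgeR adjusted p = 1.25e-05), and by 0.28 without PAI-1 replicate 2.

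Of the simple epithelial pair, KRT18 changed more than KRT8. KRT18 had 718, 785 and 751 CPM with CAF overexpressing PAI-1 and 565, 607 and 571 CPM with CAF. The groups were clearly apart. KRT18 rose 1.29-fold (log2 fold change 0.37, SE 0.054, edgeR adjusted p = 1.5e-06), and by 0.33 on the log2 scale without PAI-1 replicate 2. KRT8, the most abundant member, had 1056, 1202 and 1161 CPM with CAF overexpressing PAI-1 and 993, 1051 and 1000.1 CPM with CAF. The lowest library with PAI-1 overexpression was just above the highest with CAF. KRT8 rose 1.12-fold (log2 fold change 0.17, SE 0.055, edgeR adjusted p = 0.0186). Without PAI-1 replicate 2 it was still called (log2 fold change 0.12, adjusted p = 0.0452). That call was lost with library size alone (log2 fold change 0.10, adjusted p = 0.166), without PAI-1 replicate 3 (0.16, adjusted p = 0.0794), without CAF replicate 1 (0.15, adjusted p = 0.0729) and without CAF replicate 3 (0.16, adjusted p = 0.0892).

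The keratins of stratified epithelia were low and not called. KRT10, a keratin of the suprabasal epidermis, had 24.5, 27.02 and 27.02 CPM with CAF overexpressing PAI-1 and 26.6, 24.7 and 24.5 CPM with CAF. KRT15, a keratin of basal cells, had 10.6, 12.2 and 12.9 CPM with CAF overexpressing PAI-1 and 13.4, 10.8 and 10.3 CPM with CAF. The groups overlapped for both genes, and neither was called (log2 fold changes 0.049, SE 0.091, and 0.044, SE 0.13, edgeR adjusted p = 0.72 and 0.833). The direction of both differences depended on the scaling and turned negative with library size alone (-0.018 and -0.023).

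KRT17, a keratin of activated and basal cells, was close to the limit of detection. It had 4, 4 and 5 counts in the libraries with PAI-1 overexpression and 0, 4 and 0 counts in those with CAF. A count of 0 allows up to 3 counts in a library, so these counts lie at or just above that limit and no fold change is given. Its 8 annotated pseudogenes together had 12 counts over all libraries, against 17 for KRT17 itself.

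**Figure D2:**
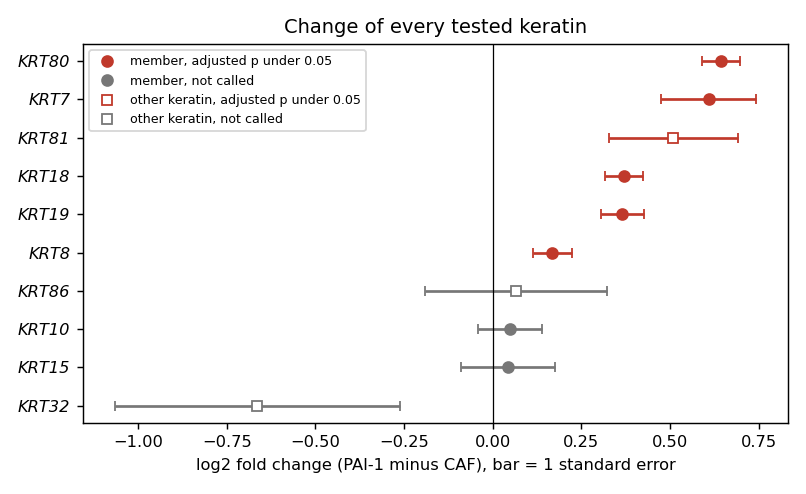
Log2 fold change of each keratin gene that passed the filter, CAF overexpressing PAI-1 minus CAF, with 1 standard error. Filled circles are members and open squares other keratins, and red marks an adjusted p under 0.05. KRT80 lies at 0.64, KRT7 at 0.61 and KRT8 at 0.17, while KRT10 and KRT15 lie near 0.

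To compare levels between genes, TMM-scaled CPM was divided by the length of the shortest transcript annotated as principal, between 1390 bases for KRT19 and 3859 for KRT80, a length chosen after values with another one had been seen. KRT8 stood highest, with 649 ± 42.9 CPM per kb with CAF overexpressing PAI-1 and 578 ± 18.0 CPM per kb with CAF (SD, n = 3 each). KRT18 followed with 529 ± 23.5 CPM per kb with CAF overexpressing PAI-1 and 409 ± 16.04 with CAF. KRT19 had 193 ± 18.5 CPM per kb with CAF overexpressing PAI-1 and 149.6 ± 5.63 with CAF. The first pair of simple epithelia and the ductal type I keratin thus made up most of the keratin message. KRT80 had 63.8 ± 1.51 CPM per kb with CAF overexpressing PAI-1 and 40.9 ± 0.96 with CAF, well under KRT19 in both groups. KRT10 had 12.3 ± 0.68 CPM per kb with CAF overexpressing PAI-1 and 11.9 ± 0.55 with CAF. KRT7 had 7.12 ± 0.74 CPM per kb with CAF overexpressing PAI-1 and 4.65 ± 0.35 with CAF, and KRT15 had 4.97 ± 0.51 with CAF overexpressing PAI-1 and 4.81 ± 0.70 with CAF. On this length KRT7 and KRT15 did not differ beyond their spread with CAF, but with all annotated exon bases as the length KRT7 had 1.99 ± 0.15 and KRT15 1.63 ± 0.24 CPM per kb with CAF. KRT7 was the higher of them with CAF overexpressing PAI-1 on either length. The order of KRT8 and KRT18 also depends on the length used, since the ratio of KRT8 to KRT18 was 0.709 with CAF overexpressing PAI-1 and 0.817 with CAF when all annotated exon bases were the length, against 1.23 with CAF overexpressing PAI-1 and 1.41 with CAF per principal transcript.

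The makeup of the keratin pool was also compared between the groups, and the shares themselves were not tested. Within each library, where scaling between libraries plays no part, KRT8 took 44.5% ± 0.72 of the summed length-scaled level of the 8 members with CAF overexpressing PAI-1 and 48.2% ± 0.10 with CAF. KRT18 took 36.3% ± 0.44 with CAF overexpressing PAI-1 and 34.1% ± 0.28 with CAF, and KRT19 took 13.2% ± 0.64 with CAF overexpressing PAI-1 and 12.5% ± 0.13 with CAF. The share of KRT8 was thus lower and that of its partner KRT18 higher with CAF overexpressing PAI-1, by more than the SD of either group. KRT80 took 4.39% ± 0.35 with CAF overexpressing PAI-1 and 3.41% ± 0.18 with CAF (SD, n = 3 each throughout). The size of the shares depends strongly on the length. With all annotated exon bases KRT8 took 28.2% ± 0.63 with CAF overexpressing PAI-1 and 31.5% ± 0.12 with CAF, less than KRT18, which took 39.7% ± 0.31 with CAF overexpressing PAI-1 and 38.5% ± 0.43 with CAF. KRT80 then took 9.66% ± 0.73 with CAF overexpressing PAI-1 and 7.74% ± 0.40 with CAF, so that the directions of these differences stayed and the levels did not.

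The ratio of KRT8 to KRT18 was 1.19, 1.24 and 1.25 with CAF overexpressing PAI-1 and 1.42, 1.40 and 1.42 with CAF. The groups did not overlap, and the mean log2 ratio was lower by 0.20 with CAF overexpressing PAI-1 (difference -0.20). An exact two-sided permutation test gave p = 0.1, the smallest that 3 against 3 libraries allow, and 0.167 adjusted over the 5 ratios computed. The ratio of all type II to all type I members was 0.962, 0.962 and 0.9996 with CAF overexpressing PAI-1 and 1.09, 1.07 and 1.09 with CAF, without overlap (difference of log2 ratios -0.15, exact p = 0.1, adjusted 0.167). KRT8 and KRT18 were the most abundant members of their types, so this ratio is not independent of theirs. With all annotated exon bases that ratio averaged 0.623 with CAF overexpressing PAI-1 and 0.656 with CAF, and the difference was -0.076. The other 3 ratios were added after values had been seen. KRT80 over KRT18 was higher by 0.27 (exact p = 0.1, adjusted 0.167) and KRT7 over KRT18 by 0.24 (exact p = 0.2, adjusted 0.25), where the groups overlapped. KRT19 over KRT18 was 0.364 ± 0.020 with CAF overexpressing PAI-1 and 0.365 ± 0.0049 with CAF (SD, n = 3 each, difference of log2 ratios -0.0073, exact p = 1). In bulk RNA, fewer cells of a type and less RNA per cell cannot be told apart.

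**Figure D3:**
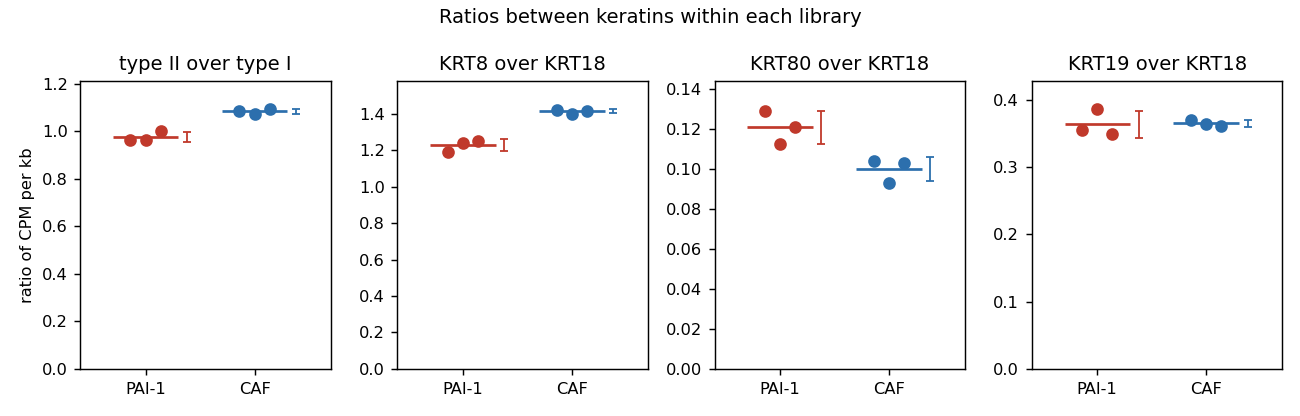
Ratios of length-scaled levels within each library, with CAF overexpressing PAI-1 (red, left) and with CAF (blue, right). Points are libraries, lines are means and bars are the SD of 3 libraries. KRT8 over KRT18 lies at 1.19 to 1.25 and at 1.40 to 1.42, without overlap, while KRT19 over KRT18 overlaps between the groups.

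The rest of the keratin family was nearly silent. Of 47 other keratin genes, 24 had no count in any library, 43 were under 1 CPM in every library, and 3 passed the filter. KRT81, a type II keratin known from hair, had 6.57, 9.15 and 5.75 CPM with CAF overexpressing PAI-1 and 4.31, 5.48 and 5.25 CPM with CAF, without overlap, and rose by 0.51 on the log2 scale (SE 0.18, edgeR adjusted p = 0.0307). That call was lost without PAI-1 replicate 2 (log2 fold change 0.29, adjusted p = 0.285), without CAF replicate 1 (0.41, adjusted p = 0.143), with library size alone (adjusted p = 0.0622), with DESeq2 (0.0684) and with limma-voom (0.0518). KRT86, its neighbour and close relative, had 2.51 ± 0.34 CPM with CAF overexpressing PAI-1 and 2.42 ± 0.28 CPM with CAF and was not called (log2 fold change 0.065, SE 0.26, adjusted p = 0.875). KRT32, also a hair keratin, had -0.66 (SE 0.40, adjusted p = 0.215). The groups did not overlap for KRT32, as for 43.4% of all genes tested.

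KRT8 and KRT18 have many pseudogenes, most of them processed, which are copies of their mRNA in the genome. KRT18P40 and KRT18P55 are annotated as unprocessed and had no count. The table held 50 pseudogenes named after KRT8 and 67 after KRT18, of which 15 and 16 had a count. Together they had 887 counts over the 6 libraries, or 0.914% of the counts of KRT8, and 105 counts, or 0.175% of those of KRT18. KRT8P12, on chromosome 3, took 655 of the 887 counts, with 117, 100 and 115 counts with CAF overexpressing PAI-1 and 121, 103 and 99 with CAF. Adding all these counts to the parent genes left the difference of the KRT8 to KRT18 log2 ratio at -0.20.

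Factors known to regulate keratins or epithelial identity moved in both directions. Of 14 in the list, 8 were tested, 4 rose and 1 fell, with a median log2 fold change of 0.064. For comparison, 17.2% of all genes tested rose and 15.0% fell. ELF3, an epithelial ETS factor, fell to 11.6, 12.5 and 10.0 CPM with CAF overexpressing PAI-1, against 28.9, 32.6 and 31.4 CPM with CAF. All 3 values were under all values with CAF (log2 fold change -1.45, SE 0.11, edgeR adjusted p = 5.74e-13). KLF5 and KLF4, Krueppel-like factors of epithelia, rose by 0.85 (SE 0.18, adjusted p = 0.00038) and 0.32 (SE 0.079, adjusted p = 0.00206). NFE2L2, which encodes NRF2, rose by 0.23 (SE 0.056, adjusted p = 0.00164). GLI2, a Hedgehog factor, was the fourth to rise, at 0.42 (adjusted p = 0.0408), and lost that call without PAI-1 replicate 1 (log2 fold change 0.21, adjusted p = 0.25), without PAI-1 replicate 3 (adjusted p = 0.0674), without CAF replicate 1 (0.0723), without CAF replicate 2 (0.165) and with library size alone (0.0726), and its groups overlapped.

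Proteins that bind keratin filaments to junctions also went both ways. Of 22 genes in the list 20 were tested, 7 rose and 7 fell, with a median log2 fold change of -0.11. Library size alone gave 5 and 10. Over all genes tested, 17.2% rose and 15.0% fell. The grouping that follows, by textbook place in the cell, was made after the values were seen. In a test against a 1.2-fold change, none of the desmosomal or hemidesmosomal genes was called. Desmosomes join keratin filaments of neighbouring cells, and of 9 tested desmosomal genes 5 fell, namely DSP, JUP, DSG2, DSC2 and PERP, while PKP3 rose. DSC2, a desmosomal cadherin, had 71.7, 65.9 and 68.0 CPM with CAF overexpressing PAI-1 and 84.4, 91.4 and 89.6 CPM with CAF (log2 fold change -0.37, SE 0.064, edgeR adjusted p = 2.94e-05). PERP, a desmosomal membrane protein, had 629 ± 10.9 CPM with CAF overexpressing PAI-1 and 797 ± 35.0 CPM with CAF (log2 fold change -0.34, SE 0.053, adjusted p = 4.33e-06). JUP, or plakoglobin, had -0.26 (SE 0.053, adjusted p = 0.000235). DSP, which encodes desmoplakin, the direct link to keratin filaments, had -0.22 (SE 0.069, adjusted p = 0.012), a call lost without PAI-1 replicate 1 (adjusted p = 0.0655) or CAF replicate 3 (0.0582). DSG2 had -0.18 (SE 0.059, adjusted p = 0.0177), a call lost without PAI-1 replicate 2 (0.054) or CAF replicate 3 (0.155). PKP3 had 0.19 (SE 0.060, adjusted p = 0.0131) and was not called without CAF replicate 3 (0.124) or with library size alone (0.113).

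Hemidesmosomes anchor keratin filaments to the matrix, and 3 of the 5 hemidesmosomal genes in the list rose. COL17A1, also of this group, was nearly absent. It had 0.91 ± 0.061 CPM with CAF overexpressing PAI-1 and 0.66 ± 0.18 CPM with CAF and was not called (edgeR adjusted p = 0.429). PLEC, which encodes the linker plectin, had 2256, 2118 and 2126 CPM with CAF overexpressing PAI-1 and 1814, 1627 and 1650.4 CPM with CAF, without overlap (log2 fold change 0.35, SE 0.055, edgeR adjusted p = 5.46e-06). ITGA6 and ITGB4, the integrin chains of hemidesmosomes, rose by 0.25 (SE 0.051, adjusted p = 0.000261) and 0.19 (SE 0.055, adjusted p = 0.0062), and ITGB4 lost its call without CAF replicate 3 (0.0881) or with library size alone (0.0722). DST, whose epithelial form is another hemidesmosomal linker, fell by 0.29 on the log2 scale (SE 0.065, adjusted p = 0.000951). Gene counts do not separate that form from the others, nor do they separate forms of PLEC.

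Of 6 tested linkers of other kinds 3 rose, 1 fell and 2 were not called. EPPK1, which encodes epiplakin, a protein bound to keratin filaments, had 16.2, 14.1 and 19.5 CPM with CAF overexpressing PAI-1 and 8.38, 7.24 and 10.2 CPM with CAF. The groups did not overlap, and it rose by 0.95 (SE 0.14, edgeR adjusted p = 1.79e-06). PNN, which encodes pinin, a nuclear and junctional protein that can bind keratins, rose by 0.53 (SE 0.060, adjusted p = 1.18e-08), and FAM83H, which organises keratin filaments, by 0.33 (SE 0.064, adjusted p = 0.000145). EVPL, encoding envoplakin, fell, at -0.31 (SE 0.078, adjusted p = 0.00203). PPL, encoding periplakin, and TCHP, encoding trichoplein, were not called, at -0.097 (SE 0.053, adjusted p = 0.171) and -0.20 (SE 0.0996, adjusted p = 0.122), and both were called lower with library size alone (adjusted p = 0.0181 and 0.0378).

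**Figure D4:**
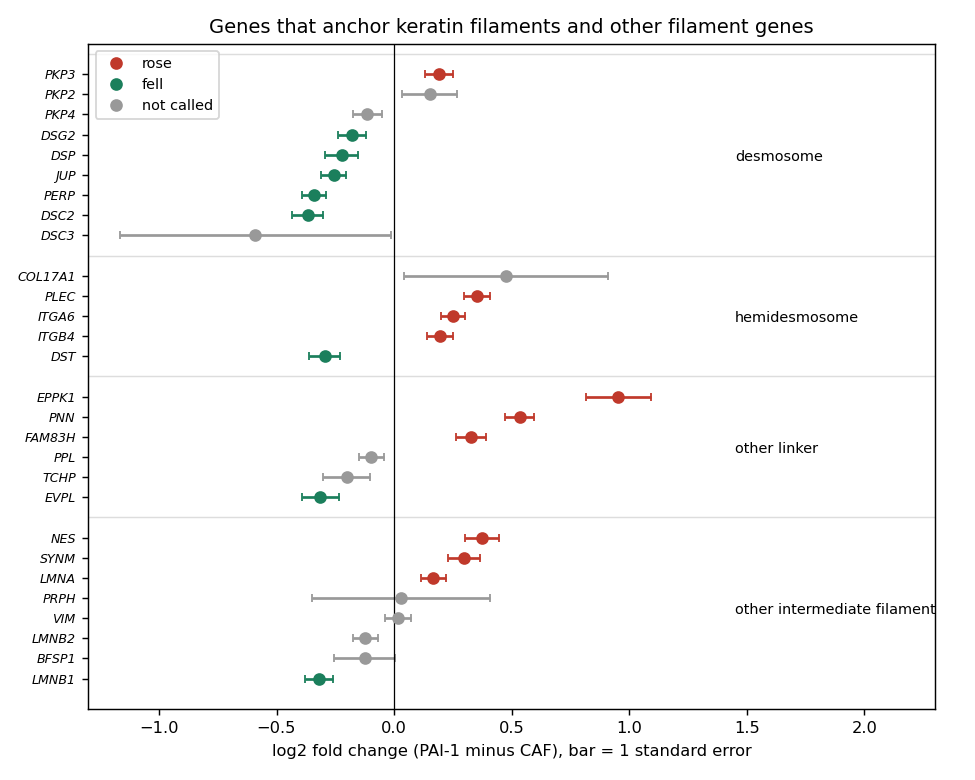
Log2 fold change, CAF overexpressing PAI-1 minus CAF, with 1 standard error, of tested genes that anchor keratin filaments and of other intermediate filament genes. Red marks genes that rose, green those that fell and grey those not called. Of 9 desmosomal genes 5 fell and 1 rose, and of 5 hemidesmosomal genes 3 rose and 1 fell. The grouping was made after the values were seen. Over all genes tested, 17.2% rose and 15.0% fell.

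Other intermediate filament genes moved in both directions. Of 16 in the list 8 were tested, 3 rose and 1 fell, with a median log2 fold change of 0.023. Among all genes tested, 17.2% rose and 15.0% fell. None of these filament genes was called in the test against a 1.2-fold change. VIM, which encodes vimentin, the filament protein of mesenchymal cells, had 2234 ± 23.6 CPM with CAF overexpressing PAI-1 and 2208 ± 109 CPM with CAF (SD, n = 3 each) and was not called (log2 fold change 0.017, SE 0.054, edgeR adjusted p = 0.842). NES, encoding nestin, and SYNM, encoding synemin, rose by 0.37 (SE 0.071, adjusted p = 9.32e-05) and 0.30 (SE 0.067, adjusted p = 0.000793). Of the nuclear lamins, LMNB1 fell to 160 ± 11.6 CPM with CAF overexpressing PAI-1, against 199 ± 7.07 CPM with CAF (log2 fold change -0.32, SE 0.058, adjusted p = 5.24e-05). LMNA had 1193 ± 53.2 CPM with CAF overexpressing PAI-1 and 1062 ± 27.9 CPM with CAF and rose by 0.17 (SE 0.053, adjusted p = 0.0144), a call lost without CAF replicate 3 (adjusted p = 0.1004) or with library size alone (0.15).

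The genes whose log2 level over the 6 libraries ran most like that of KRT80, by Pearson's r among 9609 genes of at least 10 CPM, were RARS (r = 0.9998), SEMA7A (r = 0.9997) and MAP3K14 (r = 0.9991). Their log2 fold changes were 0.35, 1.33 and 1.39. The 6 points fall into the 2 groups, which all these genes share, and 1429 of the genes had an r over 0.9.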

How the data were processed

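For 6 libraries made with oligo-dT beads, the authors deposited whole-number counts by gene in 1 table, all of whose sample columns were used. BWA, Bowtie2, RSEM and hg19 are listed, per the submitters' processing notes, without versions or roles, and the counting itself is not described. All 58735 identifiers are in GENCODE 29 (GRCh38), whose coordinates are given only to identify genes, and 27 altered gene names were restored by identifier. Columns headed CAF-NC were matched to the CAF samples.

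Testing used R 4.3.3 and edgeR 4.0.16 with TMM scaling, robust glmQLFit and glmQLFTest after filterByExpr at its defaults (a count of at least 10 and a total of 15), without covariates, with Benjamini-Hochberg adjustment over 14960 genes. Each standard error is the log2 fold change without shrinkage divided by the root of F. The test was also run on simulated counts with far fewer changed genes than were called here, so that run does not vouch for these calls. Ratios were compared with exact permutation tests. Likeness used log2(CPM + 0.5).

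Named were all members, in each list the 2 tested genes with the smallest p and the 2 most abundant, other keratins of at least 1 CPM, and the 3 genes most like the member with the largest change. Others were added after their values were seen. Members and lists were chosen with earlier results of these data known. Alternatives were 2 scalings, 2 filters, DESeq2 1.42.0, limma-voom (limma 3.58.1), non-robust estimation, glmTreat at 1.2-fold, the replicate block and each library left out. Lengths from all exon bases were added after seeing the data, and the pattern that locates the printed coding bases was adjusted until it was found in every member. The RefSeq promoter table held 2 of the 8 members, KRT8 and KRT10, and was not used further.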

Additional observations from a re-analysis of the deposited data

How the results depend on the processing

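KRT80 and KRT7 kept their direction and their call under all 15 alternatives, with log2 fold changes of 0.58 to 0.66 and of 0.54 to 0.70. KRT18 (0.30 to 0.40) and KRT19 (0.28 to 0.41) did so under 14 and lost the call in the test against a 1.2-fold change (adjusted p = 0.0619 and 0.104). KRT8 (0.10 to 0.22) kept its direction under all 15 and its call under 10. In the test against a 1.2-fold change, 2 members, 0 other keratins, 0 other intermediate filament genes, 2 anchor genes, 2 regulators and 0 ductal markers were called, of 1611 genes in all, since that test asks for a larger change. Neither anchor gene was desmosomal or hemidesmosomal. Of other keratins, 0 were called with library size alone, DESeq2 or limma-voom, and 0 were left to test at a mean of 10 CPM, which also left 3 regulators called of 5. Leaving out 1 library in turn gave 4 to 5 members, 0 to 1 other keratins and 0 to 1 squamous markers called, the last without PAI-1 replicate 3, and log2 ratio differences of -0.22 to -0.18 for KRT8 over KRT18 and -0.17 to -0.14 for type II over type I. The other length settings gave -0.11 (counts alone) and -0.076 (all exon bases) for type II over type I. Deviations of same-numbered libraries of the groups had correlations of 0.0023 to 0.012, and those of other pairs -0.0103 to 0.0047. PAI-1 replicates 2 and 3 correlated best with the CAF replicate of their own number, and PAI-1 replicate 1 with CAF replicate 3. Correlations this small show no clear pairing and cannot exclude it. With the replicate number as a block, 5 members and 5069 genes were called, and LMNB2 was added to the filament genes that fell (adjusted p = 0.0485). LMNB2 was also called lower with library size alone (adjusted p = 0.00655) and at a mean of 10 CPM (0.0281). Depth limits statements on KRT17 and the silent keratins, where intervals would cover counting error only.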
